A study of Mus musculus with 11 samples.

Results

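Beta-catenin (Ctnnb1), the 4 TCF/LEF transcription factors that carry it to DNA (Tcf7, Tcf7l1, Tcf7l2 and Lef1), the Wnt co-receptors Lrp5 and Lrp6, the destruction complex genes Apc and Gsk3b, and the nuclear adaptor Bcl9 were chosen by symbol. All 10 were among the 24421 symbols of both count tables. Each of the 11 libraries carries its own identifier, taken here as an animal; since the labels do not say so outright, p-values measure the spread between libraries. WT/flox mice (written WTlFlox in the labels) carry 1 Ctnnb1 allele with loxP sites around exon 3, a tamoxifen-inducible Cre, CREERT2, at the Hic1 locus and a tdTomato reporter, and received tamoxifen. WT mice lack the floxed allele, but their libraries are likewise labelled by day after tamoxifen. WT progenitors were sorted on tdTomato as well, so that they carry the reporter too. Mesenchymal progenitors, also called fibro/adipogenic progenitors, were sorted from hindlimb muscle as tdTomato+ Sca1+ cells negative for CD45, CD31 and alpha7, with 3 WT/flox libraries (animals 74A1 and 72B7 at day 14 after tamoxifen, 74A3 at day 56) and 3 WT libraries (74A2, 72B8 and 73C3, all at day 14). Whole tibialis anterior lysate at day 56 gave 3 WT/flox libraries (71B3, 71B4 and 71B5) and 2 WT libraries (73A5 and 73A7). The Cre is driven from Hic1, so in the lysates recombined cells are mixed with all other cells of the muscle. The labels do not say outright whether WT mice carry the Cre. If the tdTomato reporter needs Cre, the sort on tdTomato implies it for the mice that gave WT progenitors. Age and strain are not given in the labels.

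In canonical Wnt signalling, beta-catenin is held low by a destruction complex in which Apc and Axin proteins form the scaffold and the kinase GSK3-beta, encoded by Gsk3b, phosphorylates it for degradation. A Wnt ligand that joins a Frizzled receptor to Lrp5 or Lrp6 halts that complex, and beta-catenin enters the nucleus, where it binds TCF/LEF proteins and recruits Bcl9 and Pygopus proteins. Without beta-catenin, TCF/LEF proteins hold target genes down together with TLE co-repressors. Tcf7l1 acts mostly as a repressor, Lef1 and Tcf7 mostly as activators, and Tcf7l2 in either way, and Tcf7 is itself a known target in several tissues. In skeletal muscle, Tcf7l2 is a marker of the connective tissue fibroblasts, to which these progenitors belong.

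The total count was 13119843 to 16805238 per progenitor library and 16892158 to 19449227 per muscle library. Levels are CPM, the count of a gene as a share of its library, scaled with edgeR's TMM factors, within each material unless stated otherwise. Genotype differences are given as the log2 ratio WT/flox to WT from edgeR's quasi-likelihood test, two-sided, called at a Benjamini-Hochberg adjusted p under 0.05 over all genes tested, with SE and 95% interval. Sca1 (Ly6a) was at 789 to 814 CPM in WT/flox and 532 to 993 CPM in WT progenitors, unscaled, and Pdgfra, another marker of these cells, at 1080 to 1310 CPM in WT/flox and 1570 to 1890 CPM in WT progenitors. Both markers of the sorted cells were thus detected in all 6 libraries. The deposited sample table calls the lysates FAPs, against the labels, but 6 myofibre markers summed to 86400 to 114000 CPM in WT/flox and 119000 to 133000 CPM in WT lysates.

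The allele that defines the groups acts at the protein. Exon 3 of Ctnnb1 (transcript ENSMUST00000007130, 15 exons) lies at chr9:120950522-120950749 on the forward strand of GRCm38 and is 228 bases long, a whole number of codons, so that its removal keeps the reading frame. It is shown because its loss makes beta-catenin stable, and the capitals mark the codons for serine 33, serine 37, threonine 41 and serine 45, the residues whose phosphorylation leads to degradation.
Ctnnb1 exon 3: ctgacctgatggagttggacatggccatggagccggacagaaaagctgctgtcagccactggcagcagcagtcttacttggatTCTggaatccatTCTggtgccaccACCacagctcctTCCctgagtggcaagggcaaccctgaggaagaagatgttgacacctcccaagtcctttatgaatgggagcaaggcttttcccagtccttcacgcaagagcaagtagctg
The exon makes up 6.29% of the 3623 bases of that transcript. If reads fell evenly, its loss from 1 of 2 alleles would take away 3.15% of them, a log2 change of -0.05, which is smaller than the SE of the fold changes below. The gene count therefore does not check recombination.

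Ctnnb1 (ENSMUSG00000006932, GRCm38 chr9:120929216-120960507, forward strand) was the most abundant of the 10 genes in every group once scaled for length. It was at 404, 378 and 424 CPM in the 3 WT/flox progenitor libraries (74A1, 72B7, 74A3), against 460, 459 and 526 CPM in the 3 WT libraries (74A2, 72B8, 73C3). The 3 WT/flox libraries lay below the 3 WT libraries without overlap, as did 8.17% of all 12392 genes tested. The log2 fold change of -0.26 (SE 0.17, interval -0.63 to 0.11) did not pass the test (edgeR adjusted p = 0.673). In muscle Ctnnb1 was at 283, 303 and 304 CPM in WT/flox and 324 and 271 CPM in WT libraries, with the WT libraries on either side of the WT/flox libraries (log2 fold change -0.00, interval -0.34 to 0.33, edgeR adjusted p = 0.997). Ctnnb1 shares 759 exonic bases with the antisense gene Ulk4, and it is not known whether counting used strand.

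Among the TCF/LEF factors, 2 rose in WT/flox progenitors, Tcf7 and Tcf7l2, while Tcf7l1 and Lef1 gave no call. Tcf7 (ENSMUSG00000000782, chr11:52252371-52283014, reverse strand), which encodes TCF1, had 121, 129 and 126 counts in the 3 WT/flox libraries (8.88, 9.51 and 9.55 CPM), against 1, 2 and 3 counts in the 3 WT libraries. Tcf7 averaged 9.31 ± 0.376 CPM in WT/flox and 0.131 ± 0.0577 CPM in WT progenitors (SD, n = 3 each), and all 3 WT libraries were close to no signal. The log2 fold change was 6.05 (SE 0.36, interval 5.25 to 6.85, edgeR adjusted p = 3.1e-05), and the ratio of summed counts, each relative to its total depth, 67.8, had an exact 95% counting interval of 30.9 to 186. Tcf7 passed the filter on low counts through its WT/flox libraries alone, and without any filter its log2 fold change was 6.04 (edgeR adjusted p = 2.7e-07). With the day 14 libraries only (without 74A3) it was 6.03 (edgeR adjusted p = 4.0e-04).

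Tcf7 is also a gene of T cells, which the sort excludes through CD45. Of 8 T cell and lymphoid markers in the table, Cd3d, Cd3e, Cd3g, Cd4, Cd8a and Il7r had 0 counts over the 3 WT/flox progenitor libraries, and the list summed to 0.0746 to 0.144 CPM in WT/flox and 0.152 to 0.546 CPM in WT libraries. The other members of that list, Lck and Cd2, had 2 and 3 counts over the 3 WT/flox libraries and 7 and 3 counts over the 3 WT libraries, so all its values were close to 0 in both genotypes.

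Tcf7l2 (ENSMUSG00000024985, chr19:55741820-55933654, forward strand), which encodes TCF4, was at 203, 152 and 198 CPM in WT/flox progenitors (74A1, 72B7, 74A3), against 45.6, 39.4 and 44.1 CPM in WT progenitors (74A2, 72B8, 73C3). The lowest WT/flox library was thus more than 3 times the highest WT library. The log2 fold change was 2.10 (SE 0.17, interval 1.71 to 2.49, edgeR adjusted p = 1.3e-04), and 2.04 without the day 56 library 74A3 (edgeR adjusted p = 0.0012). Animals with identifiers that begin 74A and 72B occur in both genotypes. For Tcf7 and Tcf7l2 all 3 WT/flox libraries lay above all 3 WT libraries. The same order within each beginning follows from that and is not a separate result. Tcf7l2 has 22 annotated transcripts, 12 of them coding, and Tcf7 has 2. Counts per gene sum over these, so forms with and without the beta-catenin binding end were not told apart.

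**Figure D1:**
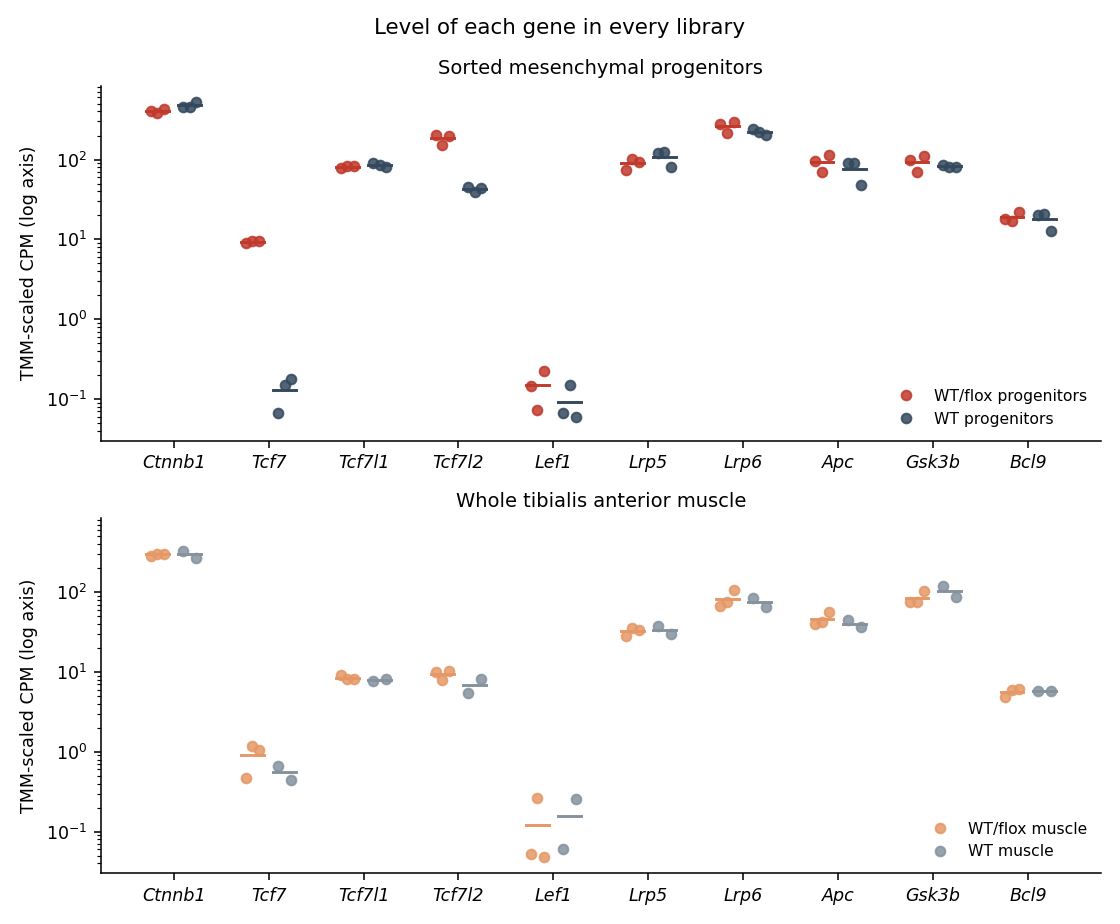
TMM-scaled CPM on a log axis of the 10 genes in each library of sorted progenitors (top) and whole muscle (bottom), with WT/flox left of WT, points for libraries and bars for group means. In progenitors Tcf7 (9.31 CPM in WT/flox and 0.131 CPM in WT) and Tcf7l2 (184 CPM in WT/flox and 43.0 CPM in WT) stand apart between genotypes, while the other genes lie close together.

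The sequence before the first listed Tcf7l2 start, chr19:55741560-55741809 (forward strand, RefSeq on GRCm38.p6), is shown because Tcf7l2 is the member with both a high level and a large rise. The 250 bases hold no match to CTTTGAT, the core that TCF/LEF factors bind, on either strand, and capitals mark its 5-letter beginning CTTTG, here in reverse complement.
Tcf7l2 promoter: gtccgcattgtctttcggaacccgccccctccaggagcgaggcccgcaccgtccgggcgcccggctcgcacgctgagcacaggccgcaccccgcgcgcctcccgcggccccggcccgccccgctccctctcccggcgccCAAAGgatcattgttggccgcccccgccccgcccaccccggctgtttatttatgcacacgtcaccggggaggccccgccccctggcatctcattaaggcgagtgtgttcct
CTTTGAT or its reverse complement ATCAAAG occurred in none of 13 such windows that matched 7 of the 10 genes (Bcl9, Ctnnb1, Gsk3b, Lef1, Tcf7, Tcf7l1 and Tcf7l2), and in 3.21% of 32851 windows of all genes. The 5-letter CTTTG or CAAAG, searched after the first search and contained in the longer core, was present in 8 of the 13 windows and in 48.6% of all windows. Both counts describe these windows alone.

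Tcf7l1 (ENSMUSG00000055799, chr6:72626378-72789254, reverse strand), which encodes TCF3, was at 78.4, 82.5 and 83.8 CPM in WT/flox progenitors, against 90.1, 84.95 and 80.4 CPM in WT progenitors, so the genotypes overlapped. Its log2 fold change of -0.06 (SE 0.14, interval -0.38 to 0.25) did not pass (edgeR adjusted p = 0.981). The interval leaves out a change of the size seen in Tcf7l2. Tcf7l1 shares 179 exonic bases with the antisense gene Gm15401.

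Lef1 was near absent. It had 2, 1 and 3 counts in WT/flox and 1, 2 and 1 counts in WT progenitors, and 1, 5 and 1 counts in WT/flox and 1 and 4 counts in WT muscle. Lef1 shares 1208 exonic bases with the antisense gene Gm43352, so that these few counts need not all be its own. It did not pass the filter on low counts and was not tested. No fold is given, and the exact 95% counting interval of the ratio of summed counts ran from 0.385 to 7.82 in progenitors and from 0.229 to 3.35 in muscle. At this depth a difference within these intervals was not detectable. In progenitors the interval lies below that of Tcf7 (30.9 to 186), counting error alone being covered.

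Scaled for length, the balance of the 4 factors differed between genotypes in progenitors. For comparison between genes and materials, CPM were scaled over all 11 libraries and divided by the kilobases of exon in each gene. Tcf7l2 took 46.1 ± 4.44% of the summed length-scaled TCF/LEF level in WT/flox and 18.4 ± 1.26% in WT progenitors (SD, n = 3 each). Tcf7l1 took 46.0 ± 3.74% in WT/flox and 81.4 ± 1.26% in WT progenitors. Tcf7 took 7.85 ± 0.705% in WT/flox and 0.190 ± 0.0901% in WT progenitors (Lef1 0.0368% in WT/flox and 0.0394% in WT). The sum of the 4 was 37 ± 2.25 CPM per kb in WT/flox and 22.4 ± 0.925 CPM per kb in WT progenitors, with no overlap between libraries. The shares are a description without a test, and those of Tcf7l2 and Tcf7 follow from the rises given above. The lower share of Tcf7l1 follows mostly from the larger sum. Its own level was 16.96 ± 0.564 CPM per kb in WT/flox and 18.25 ± 0.595 CPM per kb in WT progenitors. With the longest coding transcript as length, Tcf7l2 took 61.6% in WT/flox and 29.2% in WT progenitors, and Tcf7l1 33.6% in WT/flox and 70.6% in WT progenitors, so Tcf7l2 led in WT/flox progenitors under that length and was level with Tcf7l1 under the other. In muscle Tcf7l1 took 60.2 ± 3.19% in WT/flox (n = 3) and 67.1 ± 3.15% in WT (n = 2), and Tcf7l2 took 29.9 ± 3.22% in WT/flox and 25.3 ± 5.22% in WT.

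**Figure D2:**
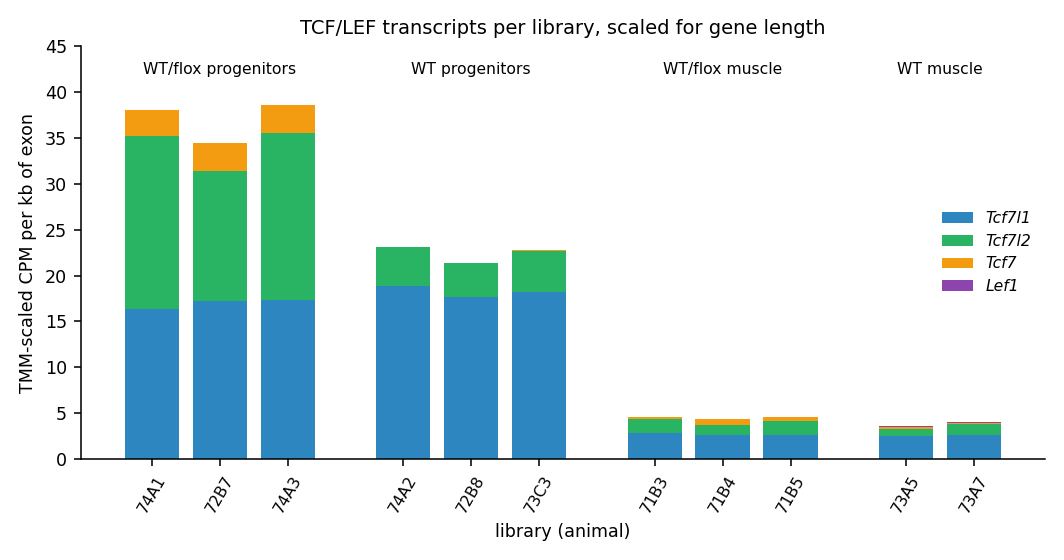
Length-scaled level (TMM-scaled CPM per kb of exon, scaled over 11 libraries) of the 4 TCF/LEF genes stacked for each library, grouped as WT/flox progenitors, WT progenitors, WT/flox muscle and WT muscle. The Tcf7l1 part is of like height in all 6 progenitor bars, and the Tcf7l2 and Tcf7 parts are taller in the 3 WT/flox bars (summed level 37 CPM per kb in WT/flox and 22.4 CPM per kb in WT).

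The co-receptors gave no call in progenitors. Lrp5 was at 73.5, 102 and 93.7 CPM in WT/flox and 119, 123 and 80.7 CPM in WT progenitors, and the genotypes overlapped through WT library 73C3 (log2 fold change -0.26, SE 0.20, interval -0.72 to 0.20, edgeR adjusted p = 0.803). Lrp6, the more abundant of both per length, was at 280, 216 and 294 CPM in WT/flox and 245, 222 and 206 CPM in WT progenitors, and overlapped through WT/flox library 72B7 (0.23, SE 0.18, interval -0.17 to 0.63, edgeR adjusted p = 0.798). Their point estimates had opposite signs, and both intervals included 0.

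The destruction complex genes and Bcl9 likewise gave no call. Apc was at 95.4, 70.2 and 113 CPM in WT/flox and 91.2, 91.7 and 48.5 CPM in WT progenitors (0.27, SE 0.27, interval -0.32 to 0.86, edgeR adjusted p = 0.883). Without WT library 73C3, the lowest, its log2 fold change was 0.02. Gsk3b was at 98.7, 69.7 and 109 CPM in WT/flox and 86.6, 81.6 and 80.8 CPM in WT progenitors, the 3 WT libraries lying inside the range of the WT/flox libraries (0.16, SE 0.18, edgeR adjusted p = 0.927). Bcl9, which links beta-catenin to Pygopus, was at 18.1, 17.1 and 21.9 CPM in WT/flox and 19.9, 21.0 and 12.7 CPM in WT progenitors (0.09, SE 0.22, edgeR adjusted p = 0.982). Library 72B7 was the lowest WT/flox library for Ctnnb1, Tcf7l2, Lrp6, Apc, Gsk3b and Bcl9, and 73C3 the lowest WT library for Tcf7l1, Lrp5, Lrp6, Apc, Gsk3b and Bcl9 but the highest for Ctnnb1. Several marker lists did not overlap between genotypes in progenitors. Their members did not all go the same way, and a sum follows its most abundant genes. The 8 progenitor markers summed to 42600 to 46000 CPM in WT/flox and 28600 to 36100 CPM in WT libraries. Col1a1 (15000 to 18200 CPM in WT/flox and 6930 to 8150 CPM in WT) and Dcn were higher without overlap, Pdgfra and Dpt (1800 to 2110 CPM in WT/flox and 2200 to 2890 CPM in WT) were lower without overlap, and the other 4 overlapped. The 6 endothelial markers summed to 250 to 308 CPM in WT/flox and 347 to 467 CPM in WT libraries. Among them Tek was lower (130 to 168 CPM in WT/flox and 340 to 434 CPM in WT), Kdr was higher (86.8 to 165 CPM in WT/flox and 2.73 to 9.6 CPM in WT), and Pecam1, Cdh5, Emcn and Cldn5 overlapped. The 6 mural markers summed to 115 to 151 CPM in WT/flox and 220 to 309 CPM in WT libraries, and Cspg4 (26.1 to 36.3 CPM in WT/flox and 96.7 to 226 CPM in WT) was the 1 member without overlap. The 4 tenocyte markers summed to 67.1 to 141 CPM in WT/flox and 170 to 435 CPM in WT libraries, mostly Fmod (52.5 to 113 CPM in WT/flox and 156 to 389 CPM in WT). Mkx was the other way without overlap (3.96 to 5.22 CPM in WT/flox and 1.78 to 2.26 CPM in WT). The 5 muscle stem cell markers, of which Myf5 and Calcr were at 0 in both genotypes, summed to 22.4 to 31.7 CPM in WT/flox and 35.1 to 46 CPM in WT libraries, mostly Vcam1 (21 to 28.8 CPM in WT/flox and 31.5 to 43.6 CPM in WT). All members of the progenitor, endothelial, mural and tenocyte lists were detected in both genotypes. The part of any of these marker lists in the results was not tested.

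Of the 9 tested members, 2 were thus higher, 0 lower and 7 not called in WT/flox progenitors, with a median log2 fold change of 0.16. Across all 12392 genes tested, 3.66% were called, 2.34% higher and 1.32% lower, and the median log2 fold change was 0.00. Libraries did not overlap for 3 of the 9, Ctnnb1 (lower) and Tcf7 and Tcf7l2 (higher), against 16.9% of all genes (8.73% higher). DESeq2 called the same 2 members, Tcf7 and Tcf7l2, and 0 lower. At an unadjusted p under 0.05 edgeR had 2 higher and 0 lower, beside 1548 of all 12392 genes in either direction.

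In whole muscle, 0 of 9 tested members were called in either direction by edgeR or DESeq2, and 0 had an unadjusted edgeR p under 0.05. Of all 12654 genes tested, 0.727% were called, 0.514% higher and 0.213% lower, and 1226 had an unadjusted edgeR p under 0.05. Libraries did not overlap for 0 of the 9 members and for 25.3% of all genes (12.4% higher, 12.9% lower). Tcf7l2 had the smallest p of the 9 (unadjusted 0.0767 in edgeR). It was at 10.1, 8.003 and 10.4 CPM in WT/flox libraries (71B3, 71B4, 71B5), against 5.39 and 8.27 CPM in WT libraries (73A5, 73A7), and only 71B4 lay inside the WT range. Its log2 fold change of 0.48 (SE 0.23, interval -0.07 to 1.02) had an edgeR adjusted p of 0.581, and it was 0.20 without 73A5 and 0.81 without 73A7. Tcf7 had 9, 22 and 22 counts in WT/flox and 11 and 7 counts in WT muscle (0.69, SE 0.50, interval -0.47 to 1.86, edgeR adjusted p = 0.761), and 71B3 lay between the WT libraries. T cell markers summed to 0.318 to 0.762 CPM in WT/flox and 0.585 to 0.651 CPM in WT muscle, so they overlapped.

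Tcf7l1 in muscle was at 9.07, 8.22 and 8.28 CPM in WT/flox and 7.72 and 8.27 CPM in WT libraries (0.09, interval -0.29 to 0.47, edgeR adjusted p = 0.927). The other 5 tested genes besides Ctnnb1 had log2 fold changes from -0.28 for Gsk3b (SE 0.20) to 0.19 for Apc (SE 0.19), none past the edgeR threshold. Gsk3b was at 75.3, 75.9 and 104 CPM in WT/flox and 119 and 87.7 CPM in WT muscle, with 71B5 above the lower WT library. WT/flox library 71B5 was the highest of the 5 muscle libraries for Lrp6 (106 CPM, the others 65.6 to 83.9 CPM), for Apc (56.6 CPM, the others 36.1 to 44.7 CPM) and for Bcl9. Without it the log2 fold change of Lrp6 was -0.07. In bulk tissue, fewer cells of a type and less RNA per cell cannot be told apart. The 8 progenitor markers, all detected in both genotypes, summed to 1090 to 1220 CPM in WT/flox and 561 to 841 CPM in WT muscle. Dcn, Col1a1, Cd34 and Hic1 were higher without overlap, and Pdgfra, Ly6a, Dpt and Pi16 overlapped. The 5 muscle stem cell markers summed to 88.5 to 94.5 CPM in WT/flox and 123 to 141 CPM in WT muscle, mostly Itga7. The 6 myofibre markers, summed above, were also lower without overlap, as were Myh4, Tnnt3 and Mylpf among them. Acta1, Ckm and Myh1 overlapped, as did the sums of all other lists. The part of these lists in the muscle values was not tested. WT/flox identifiers in muscle all begin with 71B and WT identifiers with 73A, and genotype and identifier series cannot be told apart there.

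**Figure D3:**
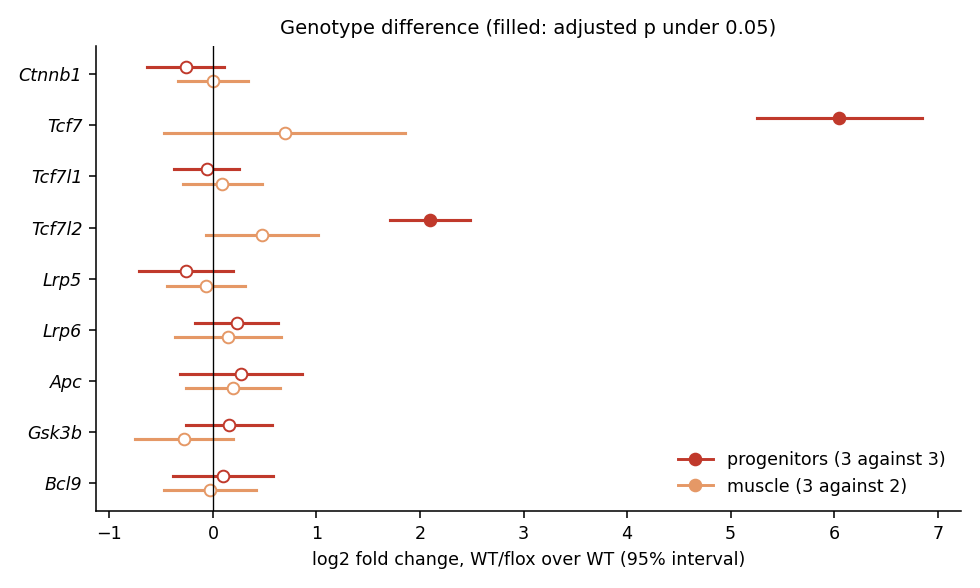
Log2 fold change of WT/flox over WT with 95% interval for the 9 tested genes in progenitors (upper mark of each pair) and muscle (lower mark), filled where the edgeR adjusted p is under 0.05. Filled marks are those of Tcf7 (6.05) and Tcf7l2 (2.10) in progenitors, and every muscle interval includes 0.

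Whether the genotype difference itself differed between materials was tested in a joint edgeR fit of all 11 libraries, which called 0.769% of 13781 genes (0.522% with a positive and 0.247% with a negative value). The difference in progenitors exceeded that in muscle by 5.30 on the log2 scale for Tcf7 (SE 0.68, interval 3.85 to 6.75, edgeR adjusted p = 0.0017) and by 1.56 for Tcf7l2 (SE 0.28, interval 0.95 to 2.17, edgeR adjusted p = 0.0181). The other 7 tested members were not called, with values from -0.31 for Ctnnb1 (SE 0.25) to 0.38 for Gsk3b (SE 0.30). The Tcf7l2 call was lost when 72B8 (1.48, adjusted p = 0.052), 74A1 (1.49, 0.0535), 74A3 (1.52, 0.0508), 73A7 (1.26, 0.127) or 71B4 (1.45, 0.0684) was left out of the edgeR fit. Over all 14 alternatives its edgeR or DESeq2 adjusted p ran from 7.0e-05 to 0.127, and that of Tcf7 from 1.0e-07 to 0.0285. Material and sort change together in this fit and cannot be told apart. Per the deposited sample tables, progenitor libraries 74A1 and 74A2 are from females and all muscle libraries from males. Sex thus goes partly with material. Days 14 and 56 both occur only among WT/flox progenitors, so day also goes largely with material. Scaled over all 11 libraries, Tcf7 was at 7.74 CPM in the day 56 library 74A3, beside 7.25 and 7.8 CPM at day 14. WT/flox muscle at day 56 had 0.597 to 1.47 CPM, and the part of day was not tested.

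Between materials in WT mice, the members split. Of the 9 tested, 5 were higher and 2 lower in WT progenitors than in WT muscle, where 76.1% of 13781 genes were called, 38.6% higher and 37.5% lower. The same 7 members did not overlap between materials, against 80.9% of all genes (41.2% higher, 39.8% lower). Levels here are scaled over all 11 libraries. WT progenitors are at day 14 and WT muscle at day 56, so material and day cannot be told apart here. WT progenitor library 74A2 is from a female, and the WT muscle libraries are from males. Tcf7l1 was at 71.6 ± 2.33 CPM in 3 WT progenitor and 9.98 ± 0.386 CPM in 2 WT muscle libraries (log2 fold change 2.84, SE 0.17, edgeR adjusted p = 1.9e-09). Tcf7l2 was at 36.3 ± 3.69 CPM in WT progenitors and 8.51 ± 2.46 CPM in WT muscle (2.09, SE 0.23, edgeR adjusted p = 1.2e-06). Lrp5 (1.09, SE 0.21), Bcl9 (1.05, SE 0.23) and Lrp6 (1.01, SE 0.23) were also higher in progenitors by the edgeR test.

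The lower members were Tcf7 and Gsk3b. Tcf7 was at 0.111 ± 0.0522 CPM in WT progenitors and 0.692 ± 0.192 CPM in WT muscle (-2.56, SE 0.59, edgeR adjusted p = 0.0013). Tcf7 entered this comparison only because the WT/flox libraries carried it past the filter of the joint fit, and it was not tested when the 5 WT libraries were fitted alone. This call rests on 6 counts in WT progenitors and 18 counts in WT muscle. In WT/flox mice Tcf7 was at 7.598 ± 0.303 CPM in progenitors and 1.13 ± 0.467 CPM in muscle. Gsk3b was at 69.9 ± 2.85 CPM in WT progenitors and 129 ± 28.8 CPM in WT muscle (-0.89, SE 0.22, edgeR adjusted p = 0.0020). Ctnnb1 (0.13, SE 0.18, edgeR adjusted p = 0.527) and Apc (0.35, SE 0.27, edgeR adjusted p = 0.245) were not called, and Apc was called without 73C3 (0.57, edgeR adjusted p = 0.0394). The 10 most abundant genes took 13.9 to 15.6% of counts in progenitor and 16.3 to 22.4% in muscle libraries, and a share of counts is relative to the rest of each library.

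**Figure D4:**
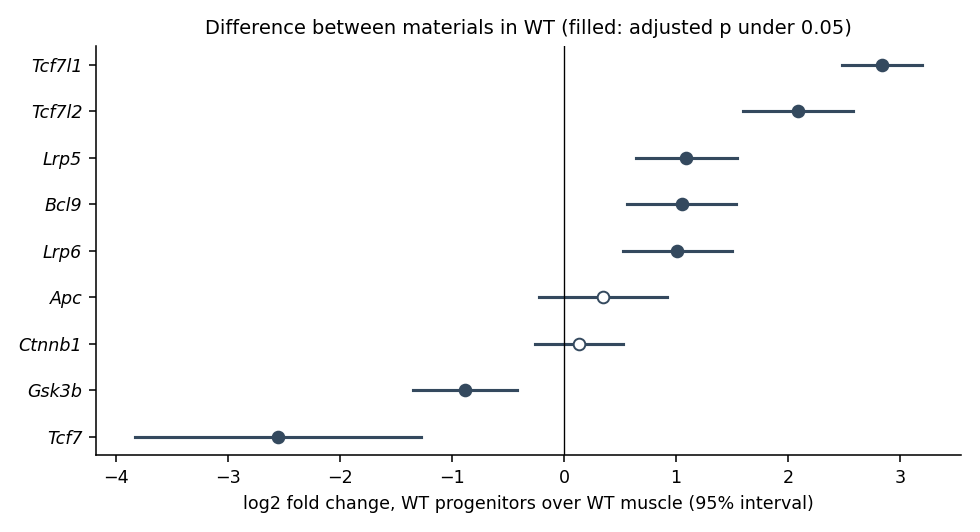
Log2 fold change of WT progenitors over WT muscle with 95% interval for the 9 tested genes, filled where the edgeR adjusted p is under 0.05. Tcf7l1 (2.84) and Tcf7l2 (2.09) lie farthest to the right, and Gsk3b (-0.89) and Tcf7 (-2.56) lie left of 0.

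Per length, the order of levels in WT/flox progenitors was Ctnnb1 (63.2 CPM per kb), Tcf7l2 (17.1), Tcf7l1 (16.96), Lrp6 (15.7), Gsk3b (7.67), Lrp5 (7.53), Apc (4.70), Tcf7 (2.89), Bcl9 (1.84) and Lef1 (0.0138), all in CPM per kb. Tcf7l2, Tcf7l1 and Lrp6 overlapped in their libraries, as did Gsk3b and Lrp5. In WT progenitors Tcf7l2 came sixth by exon length (4.13 CPM per kb), overlapping with Apc (3.99 CPM per kb), and Tcf7 came ninth (0.0424 CPM per kb), while Ctnnb1 (78.3 CPM per kb) and Tcf7l1 (18.3 CPM per kb) led without overlap. With the longest coding transcript as length, an order added after seeing the data, Tcf7l2 (9.76 CPM per kb) came before Gsk3b (8.42 CPM per kb) in WT progenitors, and in WT/flox progenitors Tcf7l2 (40.4 CPM per kb) kept its place after Ctnnb1 while Lrp6 came before Tcf7l1 and Lrp5 before Gsk3b. By that length Lrp6 overlapped Lrp5, Tcf7l2 overlapped Gsk3b and Tcf7 overlapped Lef1 in WT progenitors. In WT/flox progenitors Lrp6 overlapped Tcf7l1 and Gsk3b overlapped Apc. In muscle of both genotypes, by either length, the order of means from the top was Ctnnb1, Gsk3b, Lrp6, Lrp5, Apc, Tcf7l1, Tcf7l2, Bcl9, Tcf7 and Lef1. By exon length, Gsk3b overlapped Lrp6 and Lrp5 overlapped Apc in WT/flox muscle, and Tcf7l2 overlapped Bcl9 in WT muscle. By coding transcript, Gsk3b overlapped Lrp6 and Tcf7l1 overlapped Tcf7l2 in WT/flox muscle, and Lrp6 overlapped Lrp5 in WT muscle. Ctnnb1 was at 71.6 ± 2.66 CPM per kb in WT/flox and 71.5 ± 9.70 CPM per kb in WT muscle, and Gsk3b, next in order, at 10.9 ± 2.10 CPM per kb in WT/flox and 13.1 ± 2.93 CPM per kb in WT muscle.

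The genes whose level over the 11 libraries lay closest to that of Tcf7, by the mean absolute difference of centred log2 CPM among 11246 genes, were Axin2 (0.24), Gna14 (0.35) and Masp1 (0.48). Axin2, the feedback scaffold of the destruction complex, was at 154 ± 17.2 CPM in WT/flox and 3.47 ± 0.696 CPM in WT progenitors, and at 17.7 ± 3.61 CPM in WT/flox and 10.2 ± 1.39 CPM in WT muscle. Closest to Tcf7l2 among 11245 genes were Psat1 (0.17), which encodes an enzyme of serine synthesis, Stk39 (0.23), a kinase, and Col12a1 (0.24), a collagen. Stk39 was at 90.4 ± 23.2 CPM in WT/flox and 28.5 ± 1.02 CPM in WT progenitors, and at 6.79 ± 0.442 CPM in WT/flox and 4.95 ± 1.33 CPM in WT muscle. These distances are descriptions over libraries that fall into 4 groups. A prior count of 2, added before taking log2 CPM, weighs on the distances of Tcf7, which had 1 to 3 counts per WT progenitor library.

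Other components of the pathway were read from a list of 75 symbols (destruction complex and membrane, adhesion partners of beta-catenin, nuclear partners), of which 72 were in the tables. In progenitors 67 were tested and edgeR called 5 higher and 0 lower, beside 3.66% of all genes called. DESeq2 called the same 5 and 0 lower. At an unadjusted p under 0.05 edgeR had 7 higher and 1 lower, beside 1548 of all 12392 genes in either direction. The median log2 fold change of the list was 0.02 (0.00 over all genes). Of 28 tested genes of the destruction complex and membrane list, Axin2 (log2 fold change 5.47, SE 0.22, edgeR adjusted p = 4.4e-06), the receptor Lrp4 and Wls, which carries Wnt ligands to the cell surface, were higher. Lrp4 was at 130 ± 11.8 CPM in WT/flox and 33.5 ± 4.13 CPM in WT progenitors (1.95, SE 0.16, edgeR adjusted p = 1.4e-04). Wls was at 372 ± 65.8 CPM in WT/flox and 179 ± 35.5 CPM in WT progenitors (1.06, SE 0.21, edgeR adjusted p = 0.0211). The Wls call was lost without 74A2 (0.94, edgeR adjusted p = 0.0626), 72B8 (1.01, 0.108), 74A1 (0.90, 0.0916), 72B7 (1.14, 0.0581) or 74A3 (1.11, 0.0637).

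Of 8 tested adhesion partners 1 was higher, the cadherin Cdh11, whose cytoplasmic tail binds beta-catenin. Cdh11 was at 148 ± 11.2 CPM in WT/flox and 21.6 ± 5.89 CPM in WT progenitors (2.78, SE 0.21, edgeR adjusted p = 9.0e-05). Of 31 tested nuclear partners 1 was higher, the co-repressor Tle1, at 103 ± 7.02 CPM in WT/flox and 48.1 ± 9.21 CPM in WT progenitors (1.10, SE 0.17, edgeR adjusted p = 0.0068). Axin1 (0.10, SE 0.17), the homologue of Axin2, and Gsk3a (-0.06, SE 0.15), that of Gsk3b, did not pass in edgeR (adjusted p = 0.964 for Axin1 and 0.984 for Gsk3a). Bcl9l (0.13, SE 0.19), the homologue of Bcl9, and Pygo2 (-0.00, SE 0.15), its Pygopus partner, did not pass either (edgeR adjusted p = 0.954 for Bcl9l and 1.0 for Pygo2). These 4 genes were named after their values were seen.

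In muscle 0 of 68 tested genes of the list were called by edgeR, beside 0.727% of all genes. With an unadjusted p under 0.05 edgeR had 8 higher and 4 lower, beside 1226 of all 12654 genes in either direction. DESeq2 called 2 higher, Tle4 and Cdh11, and 0 lower, beside 265 of all 12437 genes. Cdh11 was at 4.30 ± 0.6003 CPM in WT/flox and 1.65 ± 0.386 CPM in WT muscle (1.38, SE 0.27, edgeR adjusted p = 0.0846, and 0.0429 without 73A7). The joint fit called 2 of 70 list genes, Axin2 (4.63, SE 0.29, edgeR adjusted p = 3.3e-06) and Lrp4 (1.38, SE 0.25, edgeR adjusted p = 0.0181), both with the larger difference in progenitors. Over all 13781 genes the joint fit called 0.769%. DESeq2 added Tle1 and Cdh11, and called 269 of all 13740 genes. Between WT materials 30 list genes were higher in progenitors, 30 lower and 10 not called, beside 76.1% of all genes called (38.6% higher, 37.5% lower). The Lrp4 call of the joint fit was lost without 72B8 (1.37, edgeR adjusted p = 0.0517), 74A3 (1.31, 0.0526), 73A5 (1.21, 0.0873) or 71B4 (1.37, 0.0683).

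**Figure D5:**
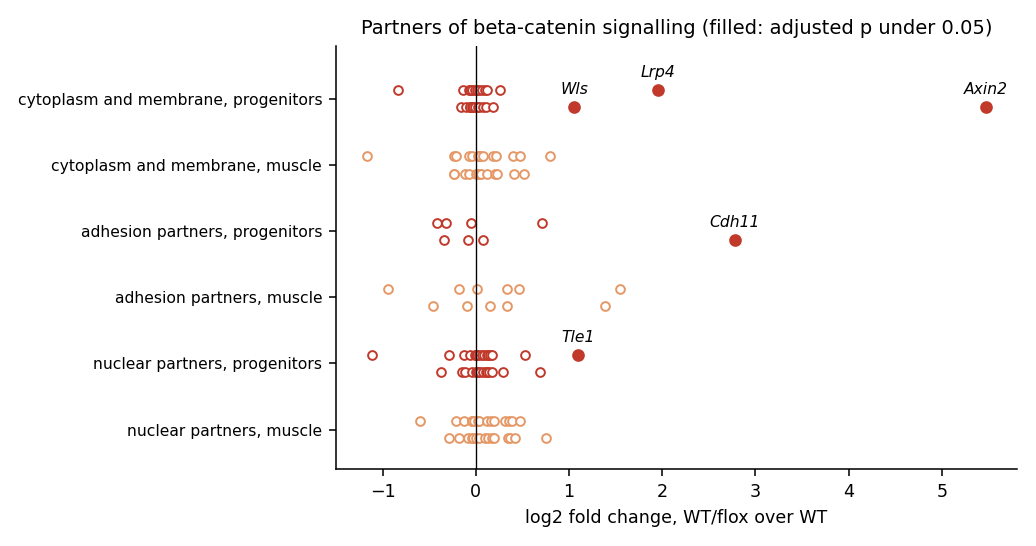
Log2 fold change of WT/flox over WT for the tested genes of the 3 lists of pathway partners, in progenitors and muscle, with 1 point per gene, filled and named where the edgeR adjusted p is under 0.05. The 5 named genes are in progenitors (Axin2, Lrp4, Wls, Cdh11 and Tle1), and no muscle point is filled.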

How the data were processed

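Poly(A) RNA of sorted cells and of tibialis anterior lysates was sequenced from stranded libraries as 43 bp pairs, per the labels. Demultiplexing with bcl2fastq 2.20, the aligners Bowtie and STAR, and build mm10 are listed in the submitters' processing notes, while no source used here names the counting program or its use of strand. What the authors deposited is 1 table per material of whole-number counts by symbol, with totals of 13119843 to 19449227 per library. Sex and a replicate number were read from the deposited sample tables. Groups follow the labels.

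Counts were tested with the quasi-likelihood F test of edgeR 4.0.16 under R 4.3.3 (low counts removed by filterByExpr, TMM factors, robust dispersions), with Benjamini-Hochberg adjustment over all genes and a threshold of 0.05. Each material was fitted alone, and the 11 libraries jointly for contrasts between materials. The script was tested on simulated data. Lengths and coordinates came from GENCODE M21 (GRCm38), promoter windows from RefSeq (GRCm38.p6). Counting intervals cover counting error only. Alternatives were DESeq2 1.42.0, RLE factors, no filter, each library left out, sex as a covariate, the WT libraries alone, another gene length, and, added after seeing the data, a replicate block.

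The 10 genes, the lists and the tests were chosen with earlier results of these data known. The text names all 10, the pathway genes past the threshold in a genotype comparison (at most 8 each), and for each member called in progenitors the 3 nearest genes above a mean log2 CPM of 1.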

Additional observations from a re-analysis of the deposited data

Results flagged for a closer look

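The genotype difference of 4 named genes differed between progenitors and muscle by the interaction term of the joint edgeR fit (n = 3 WT/flox and 3 WT progenitor, 3 WT/flox and 2 WT muscle libraries). Tcf7 differed by 5.30 on the log2 scale (6.05 in progenitors and 0.69 in muscle), and Tcf7l2 by 1.56 (2.10 in progenitors and 0.48 in muscle). Axin2 differed by 4.63 (5.47 in progenitors and 0.80 in muscle), and Lrp4 by 1.38 (1.95 in progenitors and 0.52 in muscle). Under 14 alternatives the call held in all for Tcf7 and Axin2, in 9 for Tcf7l2 and in 10 for Lrp4. The joint fit called 0.769% of 13781 genes.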

How the results depend on the processing

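Of 556 refits of single genes, 510 kept direction and side of the threshold, 7 newly passed it, 14 no longer passed it and 25 changed sign. Tcf7 and Tcf7l2 were called in progenitors under all 11 alternatives (5.74 to 6.34 for Tcf7 and 2.02 to 2.22 for Tcf7l2), and 0 members were called in muscle under any. Members called for the interaction numbered 2, and 1 to 2 with a library left out. Of genes not called, leaving out a library gave log2 values of -0.10 to 0.22 for Bcl9 in progenitors. In muscle it gave 0.20 to 0.81 for Tcf7l2, -0.13 to 0.13 for Ctnnb1, -0.22 to 0.095 for Lrp5, -0.068 to 0.33 for Lrp6 and -0.095 to 0.066 for Bcl9. Between WT materials it gave -0.037 to 0.28 for Ctnnb1. For the interaction it gave -0.17 to 0.29 for Lrp6, -0.18 to 0.24 for Apc and -0.092 to 0.19 for Bcl9. With the longest coding transcript as length, Tcf7 took 4.73% of the TCF/LEF level in WT/flox progenitors. Tcf7l1 then took 33.6% in WT/flox and 70.6% in WT progenitors, and 48.7% in WT/flox and 55.8% in WT muscle. Tcf7l2 took 61.6% in WT/flox and 29.2% in WT progenitors, and 44.2% in WT/flox and 38.4% in WT muscle. The cause of these shifts is the length alone.

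Over all genes, edgeR called 454 in progenitors, against 752 by DESeq2, 266 without 72B7 and 262 without 74A3. In muscle it called 92, against 265 by DESeq2, 139 with no filter, 239 without 73A5, 207 without 73A7, 25 without 71B4 and 0 without 71B5 (1023 at an unadjusted p under 0.05). For the interaction it called 106, against 269 by DESeq2, 70 without 74A1, 54 without 73A7, 66 without 71B3 and 61 without 71B4. Same-numbered progenitor libraries deviated with correlations of 0.292, 0.0297 and -0.134, and muscle libraries with -0.018 and -0.472. Deviations from the mean of 2 WT muscle libraries mirror each other, so the muscle correlations cannot show pairing. The few progenitor pairs do not settle whether the numbers pair libraries. The replicate block called 2 members in progenitors and 0 in muscle (508 and 178 of all genes), with muscle values of 0.033 for Ctnnb1, 0.0203 for Lrp5 and 0.063 for Bcl9.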
